A study of Mus musculus with 20 samples.

Results

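The 3 nuclear long noncoding RNAs Malat1, Neat1 and Kcnq1ot1 were followed through total RNA and polysome RNA of mouse liver. They were taken by symbol from a table of 53028 genes, and all 3 had counts in each of the 20 libraries. The livers came from 10 male C57BL/6J mice on chow. Each mouse received intraperitoneal injections of a locked nucleic acid (LNA) gapmer, a short antisense oligonucleotide that recruits RNase H to its target RNA. The 5 GFP LNA mice (1, 2, 3, 8 and 9) served as controls and received an LNA against green fluorescent protein, which mice do not carry. The 5 SNORA73 LNA mice (4, 6, 10, 11 and 12) received an LNA against SNORA73, a box H/ACA small nucleolar RNA. Both groups had 3 injections of 3 mg/kg, given every other day from 8 weeks of age, and were killed 2 days after the last. Shortly before the livers were taken, cycloheximide was injected to hold ribosomes on their mRNAs. The lysate of each liver gave a total ("input") library and a library from the polysome part of a sucrose gradient, so the 2 libraries of a mouse share their source. Total RNA here is the RNA of that lysate, made in the study's detergent-containing polysome buffer. How much of the nuclear RNA entered the lysate was not tested.

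Malat1 sits in nuclear speckles, the bodies in which splicing factors are stored, and is among the most abundant noncoding RNAs of mammalian cells. It has no poly(A) tail: RNase P cuts its 3′ end, which then folds into a triple helix. Neat1 is the scaffold of paraspeckles and has a short polyadenylated and a long isoform. Kcnq1ot1 is made from the paternal chromosome only, runs antisense to Kcnq1, and silences genes of that imprinted domain. None of these RNAs codes for a known protein, so their level in the polysome fraction can be read beside that of mRNAs under translation. The libraries were made from poly(A)-selected RNA; which form or part of Malat1, Neat1 or Kcnq1ot1 was captured was not tested.

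The gapmers are shown because they are the treatment. The study's oligonucleotide list gives 2 LNAs against SNORA73. Per the study's text the second was chosen for its further work in liver, while the sample labels do not name the oligonucleotide. Each has 20 bases, of which the 10 in capitals (5 at either end) are locked and the 10 in lower case are DNA. The pair against SNORA73 shares 11 bases, positions 1 to 11 of LNA 1 and 10 to 20 of LNA 2, counted from the 5′ end.
GFP LNA: TCACCttcaccctctCCACT
SNORA73 LNA 1: AAGTCgtaggaatatGCAGG
SNORA73 LNA 2: GACTCtgagaagtcgTAGGA

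Malat1 (ENSMUSG00000092341) lies on chromosome 19 from 5795690 to 5802672 of GRCm38.p6 and spans 6983 bases. Neat1 (ENSMUSG00000092274) lies 22035 bases farther along the same chromosome, from 5824708 to 5845480, and spans 20773 bases with 2 RefSeq transcripts. Kcnq1ot1 (ENSMUSG00000101609) lies on chromosome 7 from 143213111 to 143296547 and spans 83437 bases, all of them inside Kcnq1. The promoters of Malat1 and Kcnq1ot1 are printed as a description with no test. RefSeq windows (GRCm38.p6) of 250 bases before to 50 after the start were held for these 2 of the 3 genes. Both lie on the minus strand, Malat1 at chr19:5802623-5802922 and Kcnq1ot1 at chr7:143296498-143296797. Capitals mark matches, on either strand, to the CCAAT box, to TATAAA of the TATA box, to the GC box GGGCGG, and to TGACG, the core of the site of cAMP-responsive factors.
Malat1: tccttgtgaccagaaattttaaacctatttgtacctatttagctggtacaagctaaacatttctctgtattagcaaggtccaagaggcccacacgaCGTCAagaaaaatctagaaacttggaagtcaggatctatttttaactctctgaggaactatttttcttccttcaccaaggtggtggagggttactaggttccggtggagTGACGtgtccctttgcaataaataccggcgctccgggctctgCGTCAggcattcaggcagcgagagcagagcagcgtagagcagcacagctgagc
Kcnq1ot1: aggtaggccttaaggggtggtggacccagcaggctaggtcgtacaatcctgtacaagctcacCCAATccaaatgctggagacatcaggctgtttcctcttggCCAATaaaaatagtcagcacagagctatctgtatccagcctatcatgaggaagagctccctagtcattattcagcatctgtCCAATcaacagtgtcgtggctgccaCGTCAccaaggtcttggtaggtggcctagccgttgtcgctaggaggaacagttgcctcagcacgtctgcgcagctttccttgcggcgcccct
The Malat1 window held 3 matches to TGACG and none to the other motifs. The Kcnq1ot1 window held 3 matches to CCAAT and 1 to TGACG. Of all 32851 windows, 20.8% held TGACG, 37.4% the CCAAT box, 13.6% the TATA box letters and 35.7% the GC box letters. GC content was 47.0% for Malat1 and 53.3% for Kcnq1ot1. A match is a run of letters and was not tested as a binding site.

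Library totals ran from 14852951 to 42023390 estimated counts. The SNORA73 polysome libraries were the shallowest, with a median of 20084750. Counts ran from 1687 to 25683 for Malat1, from 325 to 4447 for Neat1 and from 29 to 141 for Kcnq1ot1, so the values of Kcnq1ot1 are the least precise. The target of the LNA could not be checked in these files: Snora73a had at most 2 counts and Snora73b at most 4 in any library. Among total RNA libraries, that of mouse 10 stood farthest from its own group (median r 0.96 of log2 CPM with the other libraries of the group) and that of mouse 9 was farthest among the controls (0.973). Among polysome libraries the lowest were mouse 11 (0.953) and mouse 10 (0.955). The study left out 1 sample per group without naming it, so values without mice 9 and 10 stand beside those of all 10 mice. The hepatocyte markers Alb, Apoa1, Ttr, Cps1, Hnf4a and Cyp2e1 were all measured, at a summed 37200 to 62400 CPM (counts scaled to a common library size) in total RNA.

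Levels are CPM of each library after TMM scaling. Per 1000 bases (kb) of RefSeq span, which allows a comparison between genes, total RNA of GFP LNA livers held 64.8 ± 9.88 CPM per kb of Malat1 (SD, n = 5), 3.64 ± 1.12 of Neat1 and 0.0351 ± 0.00756 of Kcnq1ot1. The ranges of the 3 RNAs did not overlap in any of the 4 groups. The order was therefore Malat1, Neat1, Kcnq1ot1 throughout, on the assumption that the whole span is transcribed.

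**Figure D1:**
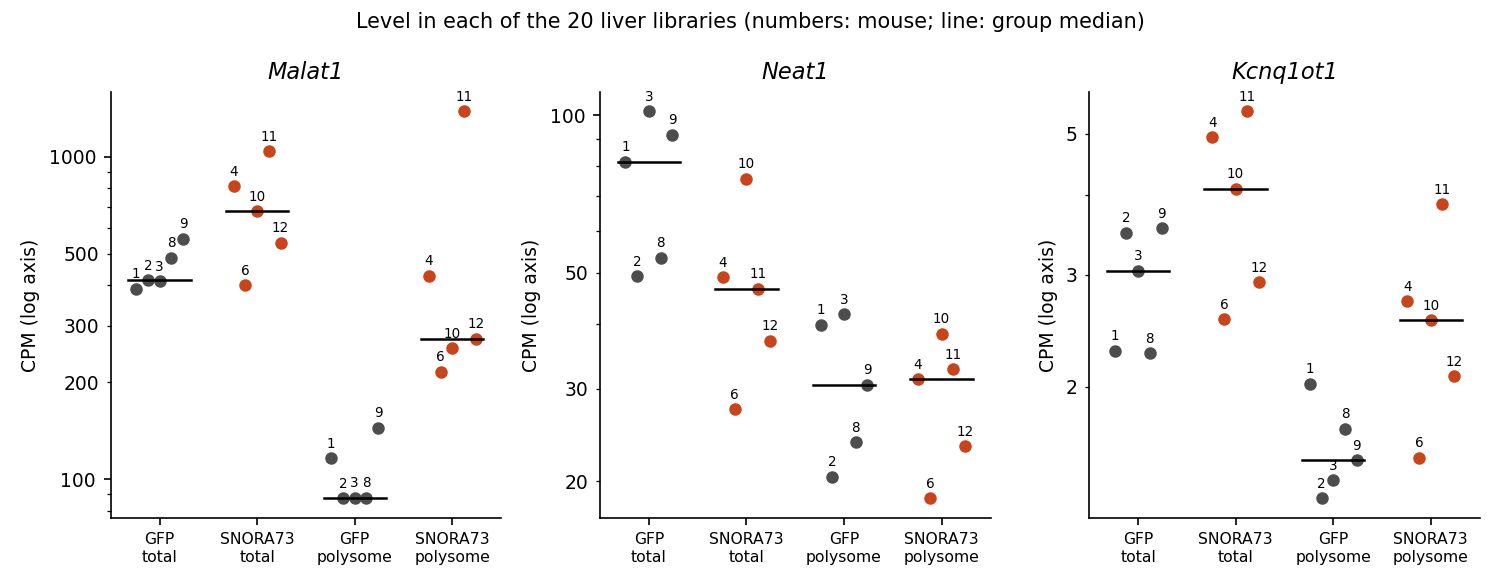
CPM (log axis) of Malat1, Neat1 and Kcnq1ot1 in each of the 20 libraries, by group, with the mouse number at each point and a line at the group median. For Malat1 the GFP LNA polysome libraries lie between 87.36 and 144.6 CPM, below all 5 SNORA73 LNA polysome libraries, of which mouse 11 stands at 1383 CPM.

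Malat1 was strongly reduced in the polysome fraction of control livers, and its polysome level relative to total RNA was higher in every SNORA73 LNA mouse than in any control. In total RNA of the GFP LNA mice 1, 2, 3, 8 and 9 its level was 390.5, 414.3, 412.4, 487.0 and 557.1 CPM. In polysome RNA of the same mice it was 116.2, 87.36, 87.88, 87.89 and 144.6 CPM. Every polysome library thus lay below every total library. The polysome level was 4.32-fold lower (log2 fold change -2.11 ± 0.40, SE, adjusted p = 0.000255, edgeR). In this comparison 21.0% of the 13795 genes tested were called lower and 21.8% higher at an adjusted p under 0.05, and the fold change of Malat1 was below that of 99.3% of genes. Of the 542 lncRNAs tested, 4 had a lower value.

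In the SNORA73 LNA livers Malat1 stood at 810.8, 400.5, 678.5, 1040 and 542.0 CPM in total RNA of mice 4, 6, 10, 11 and 12. In polysome RNA the same mice had 428.0, 215.9, 255.2, 1383 and 273.3 CPM. Mouse 11 was the only mouse of either group with more Malat1 in polysome than in total RNA. The polysome against total difference was -0.44 ± 0.38 on the log2 scale (adjusted p = 0.392), where 18.2% of genes were called lower and 19.7% higher. This value rested on mouse 11: without it the log2 fold change was -1.05 (adjusted p = 0.00189). With the mouse as a block, which pairs the 2 libraries of each animal, it was -0.77 (adjusted p = 0.00308).

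Between the LNA groups Malat1 differed more in polysome than in total RNA. The mean polysome level was 105 ± 25.4 CPM in GFP LNA and 511 ± 494 CPM in SNORA73 LNA mice (SD, n = 5), the latter being 293 ± 93.1 CPM without mouse 11. The groups did not overlap, a pattern that 2.07% of the 13060 genes tested showed in this direction and 1.16% in the other. The log2 fold change was 2.29 ± 0.46, and only 9 genes had a higher one. It did not pass the test over all genes (adjusted p = 0.0857, edgeR), where 0.0153% of genes did. Without mice 9 and 10 the log2 fold change was 2.60 (adjusted p = 0.0733), with 0.242% of genes called. DESeq2 gave an adjusted p of 0.00338, limma-voom 0.0959, and edgeR without mouse 11 gave a log2 fold change of 1.50 (adjusted p = 0.0394).

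In total RNA the groups overlapped, mice 6 and 12 lying within the GFP LNA range. The log2 fold change was 0.62 ± 0.22 (adjusted p = 0.443, edgeR), in a comparison with 0.0303% of 13195 genes called. It was 0.71 (adjusted p = 0.262) without mice 9 and 10, where 0.745% were called. In this comparison 1.14% of genes had all SNORA73 LNA libraries above all GFP LNA libraries and 0.697% had the reverse, and none of the 3 RNAs was among them.

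**Figure D2:**
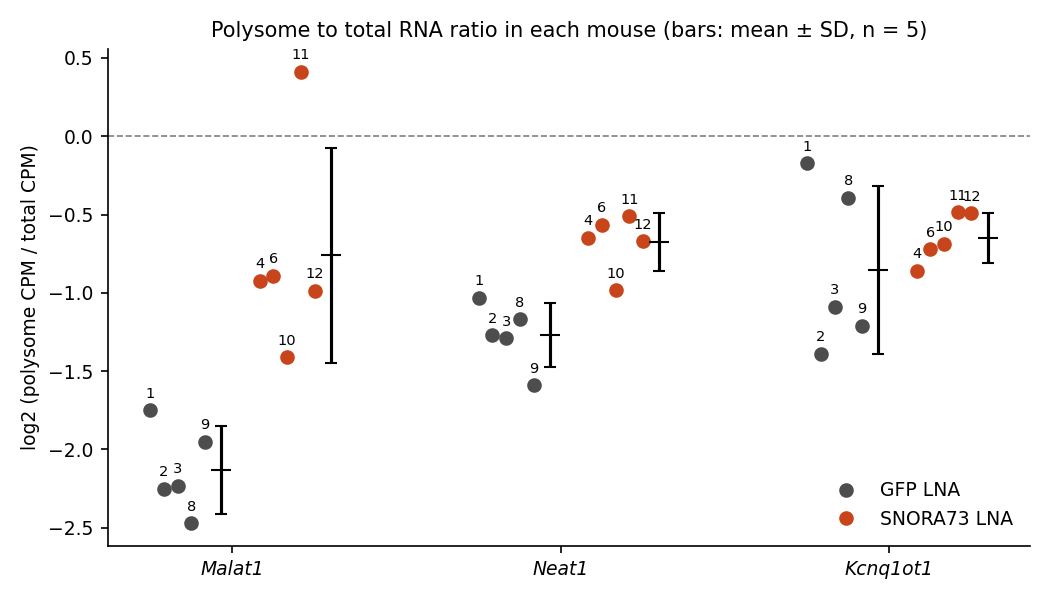
Log2 ratio of polysome CPM to total CPM of each RNA in each mouse, with mouse numbers and the mean ± SD of each LNA group (n = 5). The LNA groups do not overlap for Malat1 and Neat1 and overlap for Kcnq1ot1.

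Polysome and total RNA came from the same liver, so the ratio could be taken within each mouse. Each level is CPM scaled within its own library. The ratio is therefore relative to the other genes and is not the share of an RNA that sits on polysomes. The study reports a shift of ribosomes toward polysomes in SNORA73 LNA livers, and a change common to all genes would not show in this ratio. For Malat1 the polysome level was 29.8%, 21.1%, 21.3%, 18.0% and 26.0% of the total level in GFP LNA mice 1, 2, 3, 8 and 9. In SNORA73 LNA mice 4, 6, 10, 11 and 12 it was 52.8%, 53.9%, 37.6%, 133% and 50.4%. All SNORA73 LNA mice lay above all GFP LNA mice, as for 0.834% of the 13795 genes in this direction. The mean log2 ratio was -2.13 ± 0.28 in GFP LNA and -0.76 ± 0.69 in SNORA73 LNA mice (SD, n = 5), a difference of 1.37 (p = 0.00794, two-sided exact permutation test, the smallest p that 5 against 5 mice allow). Adjusted over all genes tested the p was 0.458, since 239 genes reached that smallest value. Within single mice, 1.14% to 2.94% of genes had a lower ratio than Malat1 in GFP LNA mice. In SNORA73 LNA mice these shares were 5.15% to 17.2%, apart from mouse 11 at 68.4%.

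The same difference was fitted across all genes as the interaction of fraction and LNA. For Malat1 it was 1.67 ± 0.55 on the log2 scale (adjusted p = 1, edgeR), and 1.36 with the mouse as a block (adjusted p = 0.137). In this fit 0.00725% of genes were called, and 0% without mice 9 and 10, although 409 genes then had an unadjusted p under 0.05. Without mouse 11 the value for Malat1 was 1.06.

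Neat1 was also reduced in polysome RNA of control livers, in each of the 5 mice less than Malat1. Its total RNA level was 81.55, 49.23, 101.8, 53.49 and 91.93 CPM in GFP LNA mice 1, 2, 3, 8 and 9. Their polysome level was 39.83, 20.38, 41.72, 23.76 and 30.59 CPM. The log2 fold change of polysome against total RNA was -1.27 ± 0.27 (adjusted p = 0.000758, edgeR), with 5% of genes below it. In the SNORA73 LNA mice 4, 6, 10, 11 and 12 Neat1 stood at 49.02, 27.43, 75.64, 46.6 and 37.12 CPM in total and 31.29, 18.53, 38.24, 32.69 and 23.29 CPM in polysome RNA. There the log2 fold change was -0.71 ± 0.27 (adjusted p = 0.0434). That call was close to the threshold and was lost without mice 9 and 10 (adjusted p = 0.1) and without any of mice 1, 4, 9, 10, 11 and 12 in turn (highest adjusted p = 0.0916); with the mouse as a block it was 2.64e-05.

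Neat1 was the only one of the 3 RNAs with a lower mean in total RNA after the SNORA73 LNA. The means were 75.6 ± 23.3 CPM in GFP LNA and 47.2 ± 18.1 CPM in SNORA73 LNA livers, with overlapping ranges. The log2 fold change was -0.68 ± 0.27 (adjusted p = 0.502, edgeR), and -0.84 without mice 9 and 10 (adjusted p = 0.187). In polysome RNA the means were 31.3 ± 9.46 and 28.8 ± 7.85 CPM and the log2 fold change was -0.12 ± 0.23 (adjusted p = 0.859). Its direction was not stable there, since it was 0.01 without mouse 3 and 0.0049 without mouse 6.

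Within mice, the polysome level of Neat1 was 33.3% to 48.8% of the total level in GFP LNA and 50.6% to 70.1% in SNORA73 LNA mice, with no overlap. The mean log2 ratios were -1.27 ± 0.20 and -0.68 ± 0.18 (SD, n = 5), a difference of 0.59 (p = 0.00794, two-sided exact permutation test; 0.458 adjusted over all genes). By group means, Malat1 stood higher in both fractions of SNORA73 LNA mice and Neat1 lower in both. The edgeR interaction for Neat1 was 0.56 ± 0.38 (adjusted p = 1).

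Kcnq1ot1 was the least abundant of the 3, and in 4 of 5 control mice it was also the least reduced in polysome RNA. Its total RNA level was 2.28, 3.49, 3.05, 2.26 and 3.56 CPM in GFP LNA mice 1, 2, 3, 8 and 9, and their polysome level was 2.02, 1.34, 1.43, 1.72 and 1.53 CPM. Again no polysome library reached any total library. The log2 fold change was -0.87 ± 0.25 (adjusted p = 0.00753, edgeR), with 11.9% of genes below it. SNORA73 LNA mice 4, 6, 10, 11 and 12 had 4.94, 2.55, 4.10, 5.42 and 2.92 CPM in total and 2.72, 1.55, 2.54, 3.88 and 2.08 CPM in polysome RNA. Their log2 fold change was -0.63 ± 0.25 (adjusted p = 0.0467), a call that was lost without mice 9 and 10 (adjusted p = 0.104) and without any of mice 3, 4, 8, 9, 10 and 12 in turn (highest adjusted p = 0.131). It was kept with the mouse as a block, which pairs the 2 libraries of each animal. Over 21 alternatives the adjusted p ran from 0.00908 to 0.131 and was under 0.05 in 11.

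After the SNORA73 LNA the mean of Kcnq1ot1 was 3.99 ± 1.24 against 2.93 ± 0.63 CPM in total RNA and 2.55 ± 0.87 against 1.61 ± 0.27 CPM in polysome RNA. The log2 fold changes were 0.43 ± 0.23 (adjusted p = 0.655) and 0.67 ± 0.26 (adjusted p = 0.308), and the groups overlapped in both. The within-mouse ratio ran from 38.2% to 88.8% in GFP LNA and from 55.1% to 71.5% in SNORA73 LNA mice. The difference of the mean log2 ratios was 0.20 (p = 0.437, two-sided exact permutation test), smaller than the SD of 0.54 among GFP LNA mice.

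**Figure D3:**
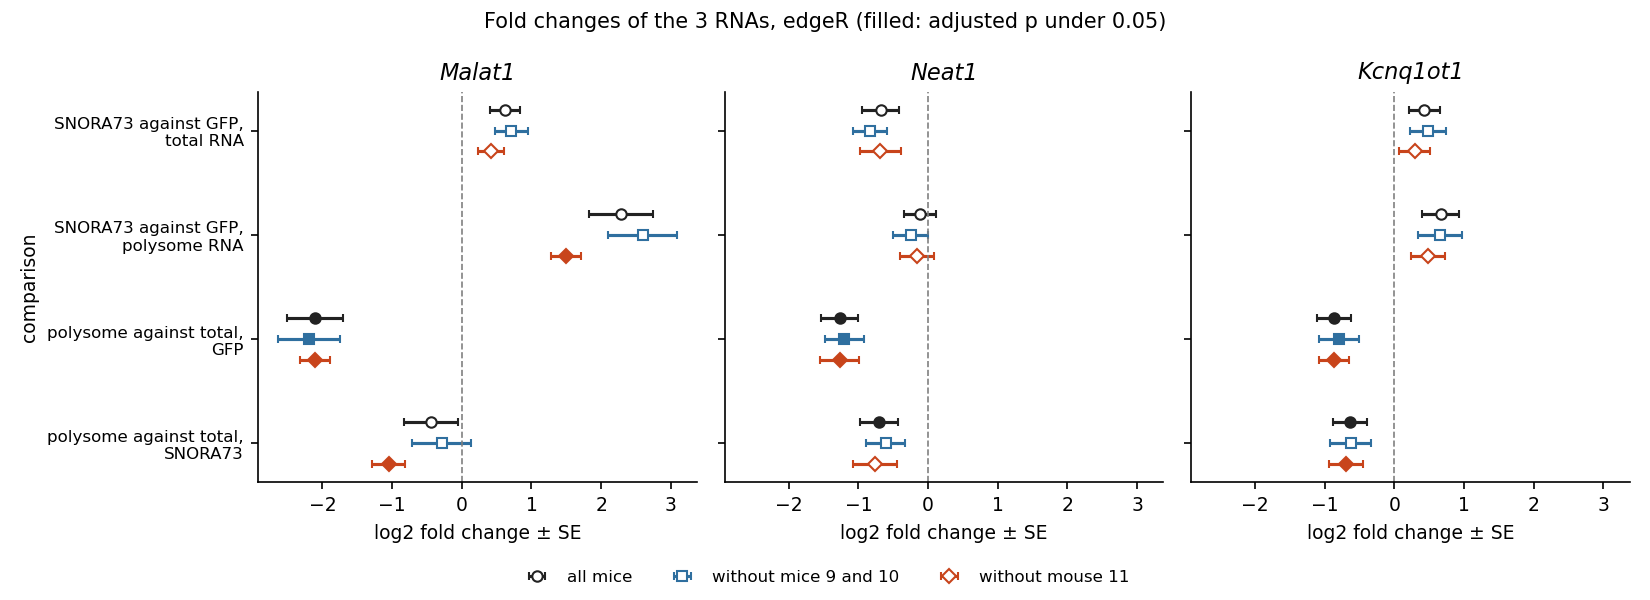
Log2 fold change ± SE of each RNA (columns) in 4 comparisons (rows) from edgeR with all mice, without mice 9 and 10, and without mouse 11; filled symbols have an adjusted p under 0.05. All 3 RNAs are lower in polysome than in total RNA of GFP LNA livers under each choice of mice, and Malat1 moves most when mouse 11 is left out.

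Some other nuclear lncRNAs were also lower in polysome RNA. Of 13 other nuclear lncRNAs listed, 7 passed the filter on low counts. In GFP LNA livers 4 of these 7 were lower in polysome RNA and none was higher, where 21.0% of all genes were called lower and 21.8% higher, and the median log2 fold change was -0.84 against 0.03 for all genes. Ftx, an activator of Xist, changed most (-1.75 ± 0.20, adjusted p = 9.88e-07). Dleu2, Tug1 and Jpx followed, at -0.95, -0.85 and -0.84, and Pvt1 (-0.56), Firre (-0.32) and Peg13 (-0.09) did not pass. In SNORA73 LNA livers the same 4 were lower (Ftx -1.63, Jpx -0.73, Dleu2 -0.67, Tug1 -0.56) where 18.2% of all genes were called lower, and the median was -0.67. Between the LNA groups none of the 7 passed by edgeR in either fraction (unadjusted p under 0.05 for 1 in total and 3 in polysome RNA); Firre had the lowest p in total RNA (log2 fold change 0.57 ± 0.26, adjusted p = 0.556) and passed there without mice 9 and 10 (0.92 ± 0.16, adjusted p = 0.0321). Tug1 had the lowest p in polysome RNA (0.45 ± 0.15, adjusted p = 0.246). Over all genes, 1141 of 13195 in total and 1755 of 13060 in polysome RNA had an unadjusted p under 0.05 by edgeR. Counts of such p between the LNA groups are to be read beside these, here and for the lists below.

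Some noncoding RNAs known from the cytoplasm were lower as well. Of 8 listed, 7 were tested and 4 were lower in polysomes of GFP LNA livers: Oip5os1 (-1.57 ± 0.11), Gas5, a snoRNA host (-1.36 ± 0.14), Snhg8 (-1.24 ± 0.23) and Norad, a sponge of Pumilio proteins (-1.10 ± 0.09). Zfas1 (-0.55, adjusted p = 0.0521; -0.61, adjusted p = 0.0256 without mice 9 and 10), Snhg1 (-0.32) and Snhg12 (-0.21) did not pass. The median log2 fold change of the 7, -1.10, lay close to the value of Neat1 and below that of Kcnq1ot1. The same 4 were lower in SNORA73 LNA livers, where the median was -0.77. The fitted difference between the LNA groups was above 0 for all 7, from 0.05 to 0.49 with a median of 0.32 against -0.01 for all genes (0.19 without mice 9 and 10), and none was called (3 of 7 with an unadjusted p under 0.05). Over all 542 lncRNAs tested, 17.0% were lower and 10.5% higher in GFP LNA polysomes, against 21.0% and 22.8% of 12039 protein-coding genes.

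**Figure D4:**
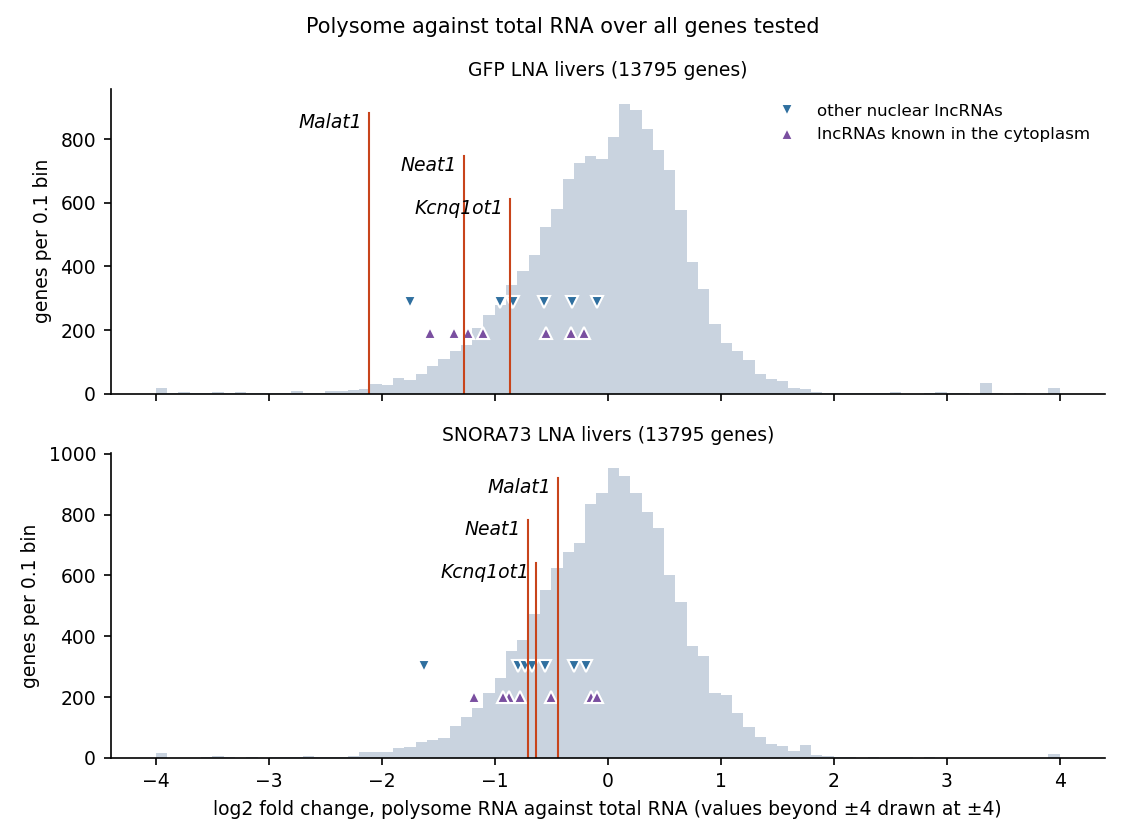
Histograms of the log2 fold change of polysome against total RNA over 13795 genes in GFP LNA (top) and SNORA73 LNA livers (bottom), with lines at the 3 RNAs and triangles at the other nuclear lncRNAs and at lncRNAs known in the cytoplasm. In GFP LNA livers Malat1 lies at -2.11 in the left tail; in SNORA73 LNA livers it lies at -0.44, to the right of Neat1 and Kcnq1ot1.

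RNAs that cytoplasmic ribosomes cannot reach or are known to be held back gave mixed values. Of the 13 mRNAs encoded in mitochondria, 12 were lower in polysome RNA of each LNA group, with a median log2 fold change of -3.28 in GFP LNA and -3.10 in SNORA73 LNA livers; mt-Atp8 had the most negative (-5.18) and mt-Nd6 was the exception (0.24). Their summed polysome level was 17300 to 27800 CPM in GFP LNA and 17900 to 35000 CPM in SNORA73 LNA libraries, and mouse 11, at 25400 CPM, was not the highest. Of the 3 liver mRNAs described as retained in the nucleus, Gcgr, the glucagon receptor, was higher in polysomes (0.76 ± 0.14, adjusted p = 0.000261), and Nlrp6 (0.49, adjusted p = 0.0973) and Mlxipl (0.09) did not pass. Without mice 9 and 10 Nlrp6 passed (0.46 ± 0.17, adjusted p = 0.0355). Among 15 mRNAs of secreted liver proteins, 4 were higher, led by Apoa2 (1.40 ± 0.18), and Apob was lower (-0.97 ± 0.11). These shares were 26.7% and 6.67%, beside the 21.8% and 21.0% of all genes. Without mice 9 and 10 Fga was called lower too (-0.43, adjusted p = 0.0211). Between the LNA groups no gene of these lists passed by edgeR with all 10 mice. An unadjusted p was under 0.05 for 1 mitochondrial and 1 retained mRNA in total RNA and for 5 and 1 in polysome RNA. Over all genes this held for 1141 of 13195 in total and 1755 of 13060 in polysome RNA. Without mice 9 and 10 Nlrp6 passed in total (1.27, adjusted p = 0.00573) and polysome RNA (1.38, adjusted p = 0.00977). So did mt-Nd6 in total RNA (1.02, adjusted p = 0.0249).

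The protein partners were looked at through their mRNAs. None of the 19 paraspeckle or 15 nuclear speckle protein genes passed between the LNA groups in total or polysome RNA by edgeR. An unadjusted p was under 0.05 for 7 and 4 of them in polysome RNA. Such a p was found for 1755 of all 13060 genes in polysome RNA and for 1141 of 13195 in total RNA. Without mice 9 and 10 Smarca4 passed in total RNA (0.70 ± 0.13, adjusted p = 0.0345). Hnrnpr (0.79 ± 0.23, adjusted p = 0.194) and Smarca4 (0.85 ± 0.26, adjusted p = 0.203) had the lowest p of the first list and Pnn, a splicing-associated protein (1.07 ± 0.25, adjusted p = 0.121), of the second. Polysome libraries of mouse 11 had the highest sums of both lists, 1490 CPM against 777 to 950 CPM in GFP LNA for paraspeckle genes and 1360 against 748 to 915 CPM for speckle genes. The part of these in the Malat1 value of mouse 11 was not tested. Its sum of the other nuclear lncRNAs, 183 CPM, lay within the range of the SNORA73 LNA group (142 to 189 CPM). In total RNA its sum was the highest of all mice, 386 CPM against a group median of 228 CPM and at most 260 CPM in GFP LNA livers. Most of that sum was Tug1, with a mean of 213 CPM and a maximum of 345 CPM in SNORA73 LNA total RNA. Of the RNase P subunits and other genes of Malat1 3′ end maturation, 11 of 12 were tested and none passed between the LNA groups by edgeR (unadjusted p under 0.05 for 2 in total and 1 in polysome RNA). In GFP LNA livers 8 of the 11 were higher in polysome than in total RNA (4 without mice 9 and 10), where 21.8% of all genes were, with Rpp21 (1.14), Pop7 (1.06) and Pop5 (1.03) at the top.

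Within the speckle and paraspeckle lists, polysome against total RNA of GFP LNA livers went both ways, beside 21.8% of all genes higher and 21.0% lower. Of the paraspeckle genes 4 were higher (21.1%) and 6 lower (31.6%), led by Matr3 (-1.37) and Cpsf6 (-1.16) on the low side and Taf15 (0.83) and Smarca4 (0.79) on the high side. Of the speckle genes 5 were higher (33.3%; 3 genes without mice 9 and 10) and 4 lower (26.7%). Srsf1 was lowest (-1.29), followed by Srsf2 (-0.75) and Srsf6 (-0.60), while Srsf11 was higher (0.68).

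Frmd8, a protein-coding gene beside Neat1, did not pass between the LNA groups, with log2 fold changes of -0.10 in total and -0.20 in polysome RNA of SNORA73 LNA against GFP LNA livers (adjusted p = 0.912 and 0.69, edgeR). In polysome against total RNA of control livers it was 0.17 ± 0.17. Kcnq1, which contains Kcnq1ot1 on the opposite strand, averaged 0.407 CPM in total RNA and did not pass the filter there. The counting is not stated to have used strand, so reads of this pair might be shared. Cdkn1c, on the far side, was 0.05 ± 0.28 in total and -0.12 ± 0.39 in polysome RNA. Of 17 genes of the Kcnq1 domain, 10 were tested between the LNA groups and none passed by edgeR. An unadjusted p was under 0.05 for 1 in each fraction, beside 1141 of all 13195 genes in total and 1755 of 13060 in polysome RNA. Cars had the lowest p in both fractions (0.42 ± 0.13 and 0.62 ± 0.24, adjusted p = 0.378 and 0.307).

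Markers of other liver cells were read beside these values, because in whole liver fewer cells of a type and less RNA per cell cannot be told apart. The summed level of 7 sinusoidal endothelial markers was 126 to 154 CPM in GFP LNA and 154 to 173 CPM in SNORA73 LNA total RNA. In polysome RNA it was 99.2 to 114 against 119 to 139 CPM. The groups did not overlap in either, though in total RNA the rounded ranges met at 154 CPM. Among single genes, 1.14% in total and 2.07% in polysome RNA showed no overlap in this direction. Of the 7 markers, Stab2 passed in total RNA (1.06 ± 0.15, adjusted p = 0.0497), though not with library totals (adjusted p = 0.103) or upper quartile scaling (0.0547) in place of TMM. In polysome RNA its log2 fold change was 1.01 (adjusted p = 0.0857), and it passed without mice 9 and 10 (1.30, adjusted p = 0.0126). Of these markers 6 of 7 were above 0 in total and 7 of 7 in polysome RNA. The 6 Kupffer cell markers summed to 132 to 213 and 119 to 210 CPM and the 7 stellate cell markers to 278 to 359 and 234 to 360 CPM in total RNA of GFP LNA and SNORA73 LNA livers. The 5 cholangiocyte markers were at 18.4 to 34.9 and 12.6 to 54.9 CPM, and the 6 lymphocyte markers had medians of 6.94 and 5.8 CPM. Krt19, Krt7, Ms4a1 and Nkg7 had no counts in at least 1 library. None of these other lists had a gene that passed between the LNA groups by edgeR. An unadjusted p was under 0.05 for 1 cholangiocyte and 1 lymphocyte gene in total RNA and for 1 hepatocyte gene in polysome RNA. Over all genes it was so for 1141 of 13195 in total and 1755 of 13060 in polysome RNA. The part of endothelial RNA in the values of Malat1, Neat1 and Kcnq1ot1 was not tested.

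**Figure D5:**
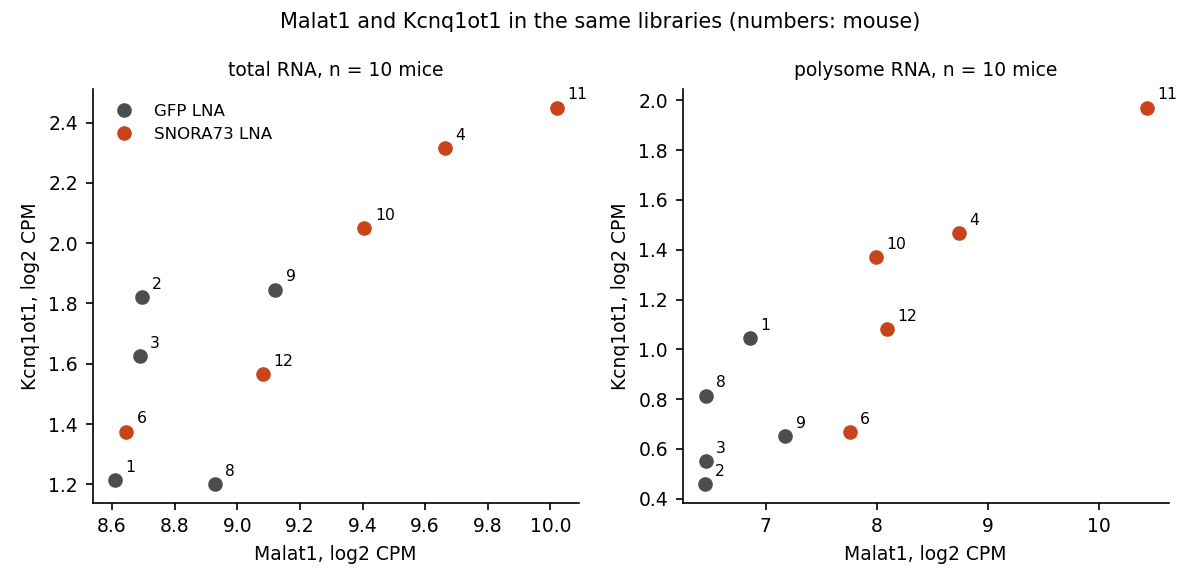
Log2 CPM of Kcnq1ot1 against Malat1 in the same library, for total RNA (left) and polysome RNA (right), 10 mice each, with mouse numbers and LNA groups by color. Mouse 11 and mouse 4 hold the 2 highest values of both RNAs in both fractions.

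Malat1 and Kcnq1ot1 varied together from mouse to mouse. In total RNA their log2 levels had a Pearson r of 0.861 (permutation p = 0.00133, adjusted p = 0.00399 over 9 relations) and a Spearman rho of 0.818 (permutation p = 0.00592, adjusted p = 0.0266) over 10 mice. Without mice 11 and 4, the farthest from the median of Malat1, r was 0.617. In polysome RNA the LNA groups were separated for Malat1, so only deviations from the group means were related. Their r was 0.807 (permutation p = 0.00552, adjusted p = 0.0124) and rho 0.758 (permutation p = 0.0152, adjusted p = 0.0456), and r was 0.789 without mice 11 and 9. On the same scale r in total RNA was 0.81 (permutation p = 0.0029, adjusted p = 0.0119). Deviations were shuffled over all 10 mice, not within the LNA groups. The spread differed between the groups, with an SD of log2 Malat1 in polysome RNA of 0.328 in GFP LNA and 1.09 in SNORA73 LNA mice. Permutation p of deviations, here and below, may thus be too small. The relation of Malat1 and Kcnq1ot1 was not particular to this pair. Over the 10 total RNA libraries the 5 genes most like Malat1 had r of 0.961 to 0.99, above the 0.861 of Kcnq1ot1.

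For Neat1 no such relation with either RNA was detected. In total RNA r was -0.0987 with Malat1 (permutation p = 0.782; 0.44 for deviations from the group means, permutation p = 0.206) and 0.0104 with Kcnq1ot1 (permutation p = 0.977), with rho of -0.188 and -0.0545 (permutation p = 0.607 and 0.893), and in polysome RNA r with Kcnq1ot1 was 0.359 (permutation p = 0.312) with rho of 0.261 (permutation p = 0.473). For deviations from the group means r of Neat1 with Kcnq1ot1 was 0.461 in total (permutation p = 0.178, adjusted p = 0.229) and 0.612 in polysome RNA (permutation p = 0.0575, adjusted p = 0.104). The deviations of Neat1 and Malat1 in polysome RNA had r = 0.352 (permutation p = 0.347). No adjusted p among these relations was under 0.05. Across fractions, Neat1 in polysome RNA followed Neat1 in total RNA (r = 0.81, permutation p = 0.0056, adjusted p = 0.0126; rho = 0.685, permutation p = 0.0347, adjusted p = 0.0781; r = 0.628 without mice 3 and 6). For deviations from group means r was 0.926 for Neat1 (permutation p = 0.0002, adjusted p = 0.0018) and 0.819 for Malat1 (permutation p = 0.00397, adjusted p = 0.0119; rho = 0.721, permutation p = 0.0234, adjusted p = 0.0527); without mice 11 and 6 the latter r was 0.539. For Kcnq1ot1 the 2 fractions had r = 0.656 (permutation p = 0.0404, adjusted p = 0.0727) and rho = 0.442 (permutation p = 0.204), and r was 0.0907 without mice 11 and 4.

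The genes most like each RNA were ranked by Pearson r of log2 CPM over the 10 libraries of a fraction, as a description over 13795 genes. With so few libraries high values of r are common among so many genes. Both LNA groups were pooled, so a difference between the groups can also raise r. In total RNA Malat1 was most like Wdr31 (0.99), Ddx46 and Helz (both 0.971), Cwf19l2 (0.964) and Ogt (0.961). Ddx46 and Cwf19l2 are spliceosome factors and Ogt attaches O-GlcNAc to nuclear proteins. In polysome RNA the list was Ncl (0.991), which codes for nucleolin, Usp9x (0.98), and Zeb2, Cenpb and Prrc2c (each 0.977). There the LNA groups were separated for Malat1 and mouse 11 stood apart. The log2 fold changes of these 5 genes between the LNA groups in polysome RNA were 1.13, 0.87, 1.16, 1.14 and 0.896, and none passed by edgeR. Kcnq1ot1 was most like Pisd-ps2 (0.969), Cyp2d38-ps (0.938), Cwc25 (0.931), Olfr318 (0.929) and Nom1 (0.915) in total RNA and Ubn2 (0.966), Kif18a (0.965), Ubxn4 (0.956), Gm15515 (0.951) and Cdk11b (0.945) in polysome RNA. Neat1 was most like Ctla2a (0.921), Top2a (0.899), Apobec1 (0.884), Coro1a (0.874) and Ccna2 (0.858) in total RNA. Top2a and Ccna2 are genes of dividing cells and Coro1a is known from leukocytes. In polysome RNA the list of Neat1 was Calhm6 (0.923), Edc4 (0.909), Dcx (0.865), Ccnj (0.859) and Nectin2 (0.847), with none of Top2a, Ccna2 and Coro1a. Several listed genes had low counts. The mean log2 CPM was 0.0406 for Top2a, -0.295 for Ccna2 and -1.3 for Olfr318 in total RNA. In polysome RNA it was -1.43 for Kif18a and -1.76 for Dcx.

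The spread between mice of a group was wider for Malat1 and Neat1 than for most genes of like level. The SD of log2 CPM of Neat1 was 0.47 in GFP LNA and 0.54 in SNORA73 LNA total RNA, above 95.2% and 96.0% of the genes within 0.5 log2 units of its mean. For Malat1 it was 0.21 and 0.53, above 75.4% and 94.2%. In polysome RNA the SD of Malat1 was 0.33 in GFP LNA and 1.09 in SNORA73 LNA mice. For Kcnq1ot1 the SD in GFP LNA polysomes was 0.23, above only 10.8% of genes of like level.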

How the data were processed

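Total RNA and polysome RNA of 10 mouse livers were measured in 20 libraries of 100 bp paired, reversely stranded reads from poly(A)-selected RNA. Per the study's methods and the labels, reads were trimmed with fastp (Phred at least 15), cleared of rRNA with Bowtie2, quantified with kallisto 0.46.2 against Ensembl release 102 (GRCm38) and summed per gene with tximport. The deposited values are estimated counts for 53028 genes, not normalized; the kallisto strand setting is not given in the sources used here. The labels write the target as "Snora37", whereas the design text and the study name SNORA73. The study's methods give an age of 10 weeks for polysome livers and the design text 8 weeks at the first injection.

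Counts were rounded to whole numbers. Of the gene identifiers, 51903 were given a symbol from reference tables. Genes with CPM above 0.5 in at least 4 libraries of a fit were tested with edgeR 4.0.16 (TMM scaling, quasi-likelihood test, R 4.3.3), with Benjamini-Hochberg adjustment over all genes tested. SNORA73 LNA was compared with GFP LNA in total and in polysome RNA; polysome RNA was compared with total RNA, and the ratios with each other, in a fit of all 20 libraries. Log2 CPM used a prior count of 1. Ratios per mouse were compared by an exact permutation test (252 arrangements) and correlations by permutation with 100000 resamples (scipy 1.17.1). Alternatives were limma-voom (limma 3.58.1, the tool of the study), DESeq2 1.42.0, other scalings and filters, and leaving out mice. Only the edgeR fits were tested on simulated counts. Of genes changed by 1 log2 unit, 79.4% were recovered in total RNA, 53.0% in polysome RNA and 32.0% for the difference of ratios. For polysome against total RNA of GFP LNA livers 71.0% were recovered. In the order given, these fits held 13048, 12838, 13609 and 13622 genes, and 9, 6, 1 and 8 unchanged genes were called in them. Simulated libraries were drawn independently, so the link between the 2 libraries of a mouse was not modelled.

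Libraries of the same mouse come from the same liver. The deviations of its 2 libraries from their group means correlated at 0.144 to 0.771, and 9 of 10 mice correlated best with themselves (not mouse 6). Genes named in the text are the 3 RNAs, the 5 genes most like each in each fraction, the nearest protein-coding genes (1 of them is not reported here), and for each gene list up to 4 called genes with the largest change, or the 2 with the lowest p where none was called. The 3 RNAs, the lists and the comparisons were chosen with earlier results of these data known.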

Additional observations from a re-analysis of the deposited data

Results flagged for a closer look

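In polysome RNA of SNORA73 LNA mice, mouse 11 held 1383 CPM of Malat1. On the CPM scale this was farther from the other 4 mice than Dixon's 95% limit allows (gap over range 0.818, limit 0.71 for 5 samples). In log2 CPM, to which the limit was not applied, mouse 11 stood at 10.43 and the other 4 at 7.755 to 8.742. Its log2 ratio of polysome to total Malat1, 0.41, was flagged in the same way (0.715). The 18 groups of values tested would give about 1 such flag by chance. The library of mouse 11 was not shallow (20797922 counts, 25683 of them Malat1), and its total RNA library also held the most Malat1 of all 10 mice, 1040 CPM.

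The log2 ratio of polysome to total RNA differed between the LNA groups for Malat1, by 1.37, and for Neat1, by 0.59 (SNORA73 LNA minus GFP LNA, p = 0.00794 each, exact permutation test, higher in 5 of 5 mice than in any control). Adjusted over all 13795 genes the p was 0.458 for both. Without mouse 11 the difference for Malat1 was 1.075, a setting chosen after seeing the data.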

How the results depend on the processing

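Genes called between the LNA groups by edgeR were few, and their number moved with the method. In total RNA 4 genes were called, and 75 by DESeq2, 2 with library totals, 13 with no filter beyond 1 count, 2 with CPM above 1 in every library and 97 without mice 9 and 10. In polysome RNA 2 were called, and 281 by DESeq2, 0 with library totals, 72 with no filter, 31 with CPM above 1, 31 without mice 9 and 10 and 317 in one fit of all 20 libraries. Leaving out 1 mouse gave 1 to 59 genes in total and 0 to 17 in polysome RNA, both highest without mouse 9. For the difference of ratios 1 gene was called, 7 by DESeq2, and 0 by limma-voom, with CPM above 1 and without mice 9 and 10 (448, 260 and 409 with an unadjusted p under 0.05).

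Malat1 in polysome RNA between the LNA groups (log2 fold change 2.29) passed by DESeq2 (2.295), with no filter (2.264) and in one fit of all libraries (2.286). Leaving out 1 mouse gave 1.497 to 2.484. For Neat1 that range was -0.2404 to 0.01297, above 0 without mouse 3 or mouse 6 (0.004921). Polysome against total RNA in SNORA73 LNA livers was -0.44 for Malat1 and passed with the mouse as a replicate block (-0.7689), which pairs its libraries; the range without 1 mouse was -1.052 (without mouse 11) to -0.2888. There the call of Neat1 was lost by limma-voom (-0.6676), without mice 9 and 10 (-0.6066) and in a fit of that LNA group alone (-0.7056), with a range of -0.7615 to -0.6071 without 1 mouse. The call of Kcnq1ot1 was lost by limma-voom (-0.5916), with no filter (-0.6502), without mice 9 and 10 (-0.6275) and in that group alone (-0.6298), with a range of -0.6973 to -0.5685. The block changed no other call of the 3 RNAs. In GFP LNA livers all 3 RNAs were lower in polysome RNA under each of 21 alternatives. The correlation of Malat1 with Neat1 in total RNA changed sign for deviations from group means (0.44). The cause of these changes was not tested. Library totals moved the median of all genes by -0.145 in total and -0.155 in polysome RNA between the LNA groups; the 3 RNAs kept their direction. Depth limits Kcnq1ot1 most, at 29 to 141 counts a library.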

Other observations

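In polysome RNA of SNORA73 LNA against GFP LNA livers, 9 genes had a larger log2 fold change than Malat1 and none of them passed by edgeR; they were looked up after their values were seen. The acute-phase genes Saa2 (6.01), Saa1 (5.06), Saa3 (4.70) and Orm2 (3.49) and Lcn2 (5.03), which codes for an iron-binding protein of the acute phase, were the top 5, with adjusted p from 0.183 to 0.228. How far these fold changes rest on single mice was not tested. The genes called in polysome RNA were Anp32b (1.79) and Smarce1 (1.03), both with an adjusted p of 0.0437. In total RNA the genes called were Gm5641 (0.93), Virma, a part of the m6A writer complex (0.81) and Stab2 (1.06), and also Gm15387, which is given no fold change because its counts in total RNA of GFP LNA livers rounded to 0. Gm15387 was also the gene called for the difference of ratios.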
